A study of Mus musculus with 6 samples.

Results

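Mammalian cells take up iron, store it and export it through a small set of proteins, and 10 mouse genes of that set were followed in gastrocnemius muscle: Tfrc, Trf, Slc11a2 and Slc39a14 for uptake, Fth1 and Ftl1 for storage, Slc40a1 for export, and Ireb2, Aco1 and Fbxl5 for control. Members were all probe sets that the platform annotation assigns to 1 of these symbols, together with the 3 control probe sets that the array carries for mouse transferrin receptor. On this basis 8 of the 10 genes had a probe set of their own, out of 18193 genes with such a probe set, and all 8 passed the filter on low signal. They had 20 probe sets, of which 17 passed that filter and 3 did not. Ftl1 and Trf had only 4 probe sets, each annotated to several genes, and these are described without being counted for either gene.

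The samples were 6 arrays of gastrocnemius, a mixed hindlimb muscle of mainly fast fibres, from male C57BL/6J mice, with 1 array for each combination of 3 diets and 2 times without food. The HF+SFC+ALA diet was a high-fat diet (60 kcal% fat) to which 2 additives were given by weight: 0.023% of the iron salt sodium ferrous citrate (SFC), and 0.2% of the heme precursor ALA, which is 5-aminolevulinic acid phosphate. The HF diet was the same high-fat diet without the additions, and the Control diet held 10 kcal% fat. Mice started their diet at 6 weeks of age and ate it for 15 weeks, per the series' design, whereas the labels give an age of 21 months; no result uses the age. Tissue was taken after 24 h or 4 h without food. RNA was pooled within each group, from a number of animals that the sources used here do not state, so each combination is 1 pool without replicates and differences between animals cannot be seen.

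Signals are MAS5 intensities on a linear scale, which show changes of 1 probe set between pools and do not rank different genes. Median signal over the probe sets was 63.0 to 69.5 and the share of probe sets above the floor of 26.4 was 68.9% to 71.6%. The ratio of 3' to 5' signal of the actin control probe sets, a measure of RNA and labelling quality, was 1.08 to 1.22 at 24 h and 1.09 to 1.52 at 4 h; that of 3' to middle signal was 3.49 to 4.58 at 24 h and 3.60 to 3.82 at 4 h. All 10 skeletal muscle markers were above the floor on every array, and their summed signal was 440000 to 504400 at 24 h and 435600 to 477800 at 4 h. In whole tissue, fewer cells of a type and less RNA per cell cannot be told apart.

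As background, transferrin (Trf) carries iron in plasma and is taken into cells by transferrin receptor 1 (Tfrc). The iron then crosses the endosomal membrane through DMT1 (Slc11a2), is stored in ferritin shells made of heavy (Fth1) and light (Ftl1) chains, and leaves the cell through ferroportin (Slc40a1). When iron is scarce the iron regulatory proteins, encoded by Aco1 and Ireb2, bind stem-loops in messenger RNAs: they protect the Tfrc message from decay and block translation of ferritin and ferroportin. FBXL5 senses iron and marks IRP2, the product of Ireb2, for degradation.

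Tfrc is the gene whose level changed most clearly, so its start region is shown. RefSeq annotates 2 start sites for it on chromosome 16 of GRCm38.p6, at 32608896 and 32609122. The 30 bases around the first site are given with 2 short motifs in capitals, the first being ACGTG, the core that hypoxia-inducible factors bind, and the other TGACG, the left part of the cAMP response element.
Tfrc, chr16:32608889-32608918, plus strand: ggtgtACGTGcggaaggaagTGACGtagat
Counted to the second start site, the motifs begin 228 and 213 bases upstream. RefSeq promoter windows of 300 bases (250 before and 50 after a start) were at hand for 5 of the 10 genes: Tfrc, Fth1, Ftl1, Ireb2 and Aco1, with 7 windows in all. ACGTG, searched on both strands, was found in the 2 overlapping windows of Tfrc, and it occurs in 19.6% of 32851 mouse windows. TGACG was found in those and in 1 window of Fth1, and it occurs in 20.8% of windows. The motifs do not overlap each other, and a match describes letters only.

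The first comparison asked how iron genes differ after 24 h without food from 4 h. Tfrc, which sets how much transferrin-bound iron a cell takes up, had signals of 3368, 3192 and 4112 at 24 h in the HF+SFC+ALA, HF and Control pools, against 7826, 10053 and 10076 at 4 h. Every 24 h pool lay below every 4 h pool, and the 4 h signal was 2.32, 3.15 and 2.45 times the 24 h signal in the HF+SFC+ALA, HF and Control diets. Fitted over the 6 pools with diet in the model, Tfrc fell 2.62-fold (log2 difference -1.39 ± 0.09, SE; 95% interval -1.59 to -1.19; limma, adjusted p = 0.000686). It had the smallest p of the 11537 genes tested and the fifth lowest log2 difference. It was the 1 member of 8 that passed, beside 2.39% of all genes tested and 0.910% that passed with lower signal.

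**Figure D1:**
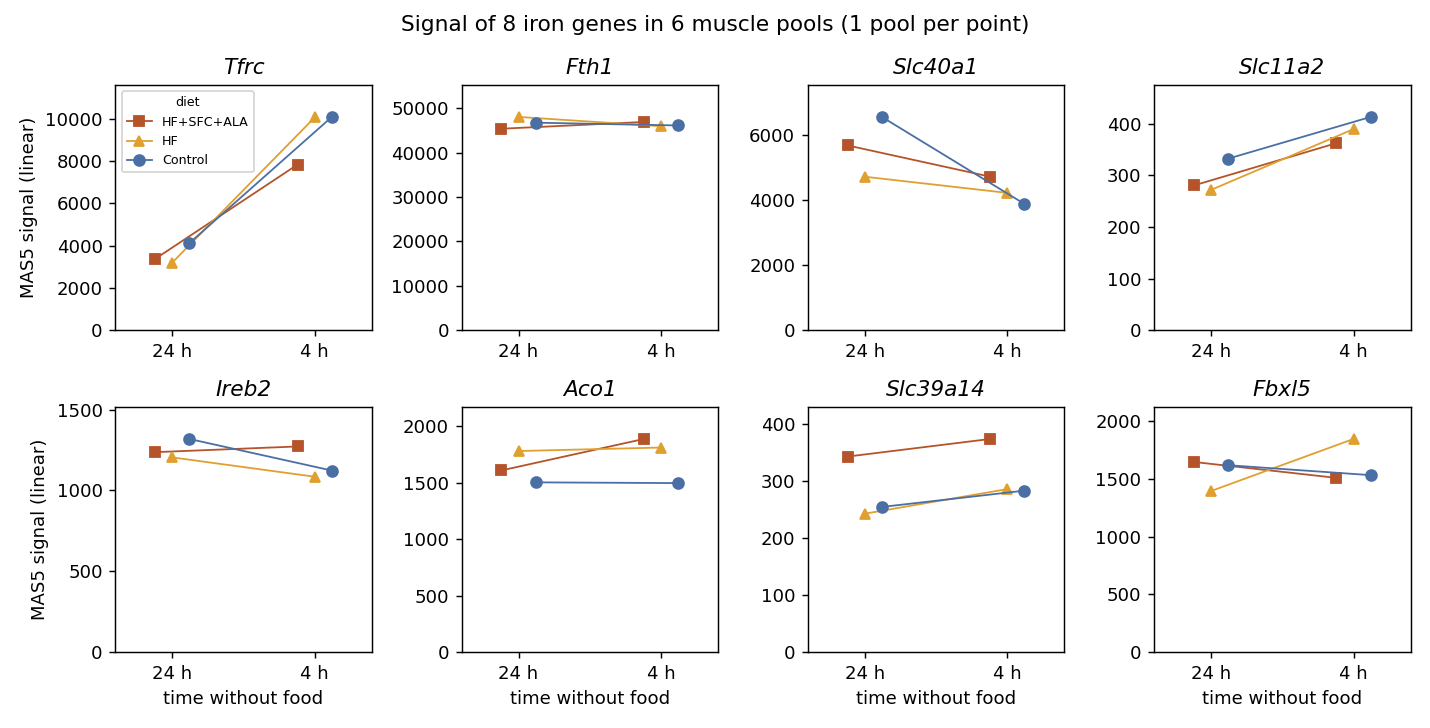
MAS5 signal (linear, from 0) of the 8 genes with a probe set of their own, at 24 h and 4 h without food; each point is 1 pool, lines join the pools of a diet, and points are shifted sideways for clarity. Tfrc lies between 3192 and 4112 at 24 h and between 7826 and 10076 at 4 h, while Fth1 stays between 45382 and 48042 in all 6 pools.

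The other probe sets of Tfrc moved the same way. Probe set 1422966_a_at read 247, 256 and 187 at 24 h in HF+SFC+ALA, HF and Control pools, against 655, 573 and 529 at 4 h (log2 difference -1.36 ± 0.13, limma adjusted p = 0.00281). The dimmer 1422967_a_at read 69.6, 41.1 and 89.2 at 24 h, against 173, 181 and 180 at 4 h in the same order (-1.49 ± 0.28, limma adjusted p = 0.0397). In both, no 24 h pool reached any 4 h pool.

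The array also carries 3 control probe sets for the 3' part, middle and 5' part of the Tfrc message. The 3' set read 96.1, 116 and 85.1 at 24 h in HF+SFC+ALA, HF and Control pools, against 363, 358 and 335 at 4 h (log2 difference -1.84 ± 0.18, limma adjusted p = 0.00281). The 5' set read 62.4, 63.2 and 63.1 at 24 h, against 186, 207 and 172 at 4 h (-1.58 ± 0.23, limma adjusted p = 0.0167). The middle set read 63.1, 57.1 and 45.3 at 24 h, against 147, 127 and 134 at 4 h, without passing (-1.31 ± 0.27, limma adjusted p = 0.0552). These adjusted p-values come from a fit over 22521 probe sets, of which 1.48% passed. All 18 differences between pools, over 6 probe sets and 3 diets, were negative. The ratio of 3' to 5' signal within Tfrc was 1.35 to 1.84 at 24 h and 1.73 to 1.95 at 4 h. Its ratio of 3' to middle signal was 1.52 to 2.04 at 24 h and 2.47 to 2.83 at 4 h, so the times did not overlap in this ratio, and its part in the result was not tested.

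The call of Tfrc depends on how the spread is estimated. With no filter on signal the adjusted p was 0.321, and without the intensity trend it was 0.282, with the same difference of -1.39; in both settings 0 of all genes passed.

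**Figure D2:**
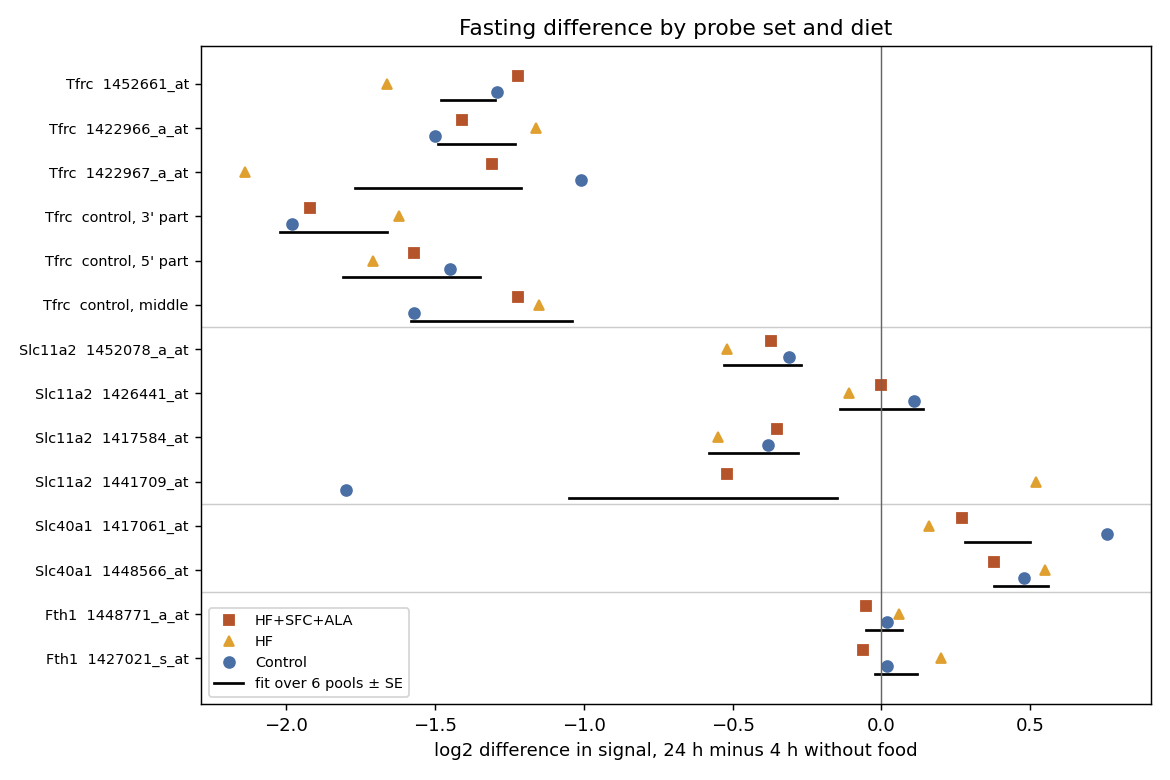
Log2 difference in signal, 24 h minus 4 h without food, for each probe set above the filter of Tfrc, Slc11a2, Slc40a1 and Fth1; symbols are single pairs of pools by diet and black lines the fitted difference ± SE over 6 pools. All 18 symbols of Tfrc lie below 0, all 6 of Slc40a1 above 0, and those of Fth1 between -0.06 and 0.20.

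Slc11a2 encodes DMT1, which moves ferrous iron out of endosomes. Its brightest probe set, 1452078_a_at, read 281, 272 and 332 at 24 h in HF+SFC+ALA, HF and Control pools, against 363, 390 and 413 at 4 h. The 24 h pools all lay below the 4 h pools, as did those of 8.36% of all genes tested; Tfrc and Slc11a2 were the 2 of 8 members with this pattern, and 0 of 8 showed the opposite one, beside 10.6% of all genes. The fitted difference of -0.40 ± 0.13 (95% interval -0.70 to -0.10) did not pass (limma adjusted p = 0.156).

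The probe sets of Slc11a2 differed among themselves. Probe set 1417584_at read 209, 211 and 200 at 24 h, against 266, 310 and 260 at 4 h in HF+SFC+ALA, HF and Control pools, a difference of -0.43 ± 0.15 (limma adjusted p = 0.211). Probe set 1426441_at read 279, 303 and 346 at 24 h, against 279, 328 and 320 at 4 h in the same order, a difference of 0.00 ± 0.14. Its pools overlapped. The dimmest, 1441709_at, scattered from 9.69 to 95.6 over the pools, with the Control pool at 24 h under the floor. DMT1 messages are known to occur in forms with different 3' ends, and the sources used here do not say which form each probe set detects.

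Slc39a14 encodes ZIP14, an importer of iron that is not bound to transferrin, and of zinc and manganese. Its signals were 343, 243 and 254 at 24 h in HF+SFC+ALA, HF and Control pools, against 373, 286 and 283 at 4 h. Each diet was slightly lower at 24 h, the groups overlapped, and the difference of -0.17 ± 0.14 did not pass (limma adjusted p = 0.580). A second probe set, 1425649_at, gave -0.26 ± 0.29, and 2 more were below the filter, 1 of them under the floor in all 6 pools; the third probe set below it belongs to Aco1.

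The storage gene Fth1, the ferritin heavy chain that oxidises iron as it enters the shell, had signals of 45382, 48042 and 46747 at 24 h in HF+SFC+ALA, HF and Control pools, against 46910, 45958 and 46118 at 4 h. The groups overlapped and the difference was 0.01 ± 0.06 (95% interval -0.13 to 0.15; limma adjusted p = 0.948). Its second probe set, 1427021_s_at, gave 0.05 ± 0.07. The first lies in the signal range of the muscle markers (32880 to 64860) and the second, at 27965 to 32107, just under it; whether signals this bright still follow the transcript level was not tested.

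The 3 probe sets annotated to Ftl1, the ferritin light chain, also list Ftl1-ps2, and 1 of them microRNA genes as well. The brightest, 1418364_a_at, read 4430, 5549 and 5624 at 24 h in HF+SFC+ALA, HF and Control pools, against 5293, 5316 and 5390 at 4 h. The HF+SFC+ALA pool at 24 h was the lowest and the other 5 pools lay close together. The fasting differences of the 3 probe sets were -0.04, 0.00 and 0.11 on the log2 scale, with standard errors of 0.08 to 0.12.

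Slc40a1, ferroportin, is the exporter of cellular iron known in vertebrates. Its brightest probe set, 1417061_at, read 5681, 4719 and 6558 at 24 h in HF+SFC+ALA, HF and Control pools, against 4720, 4223 and 3885 at 4 h. Each diet was higher at 24 h, but the HF pool at 24 h did not exceed the HF+SFC+ALA pool at 4 h. The difference of 0.39 ± 0.11 (95% interval 0.15 to 0.63) did not pass (limma adjusted p = 0.0977).

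On its second and dimmer probe set, 1448566_at, Slc40a1 passed narrowly as higher at 24 h. The signals were 1233, 1061 and 928 at 24 h in HF+SFC+ALA, HF and Control pools, against 945, 726 and 667 at 4 h. The Control pool at 24 h fell just short of the HF+SFC+ALA pool at 4 h, and within each diet 24 h was higher by 0.38, 0.55 and 0.48 on the log2 scale. The fitted difference was 0.47 ± 0.09 (limma adjusted p = 0.0466 over all probe sets). With both probe sets averaged it was 0.43 and did not pass (limma adjusted p = 0.120). No other setting of the fit was run on 1448566_at alone. All 6 differences, over both probe sets and 3 diets, were positive. With 1 pool left out, the other pool of that diet no longer bears on the fasting difference. Leaving out either pool of a diet thus gives the same value and is not a separate check. On the brightest probe set the difference was 0.21 without either Control pool, 0.46 without either HF+SFC+ALA pool and 0.51 without either HF pool.

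Of the control genes, Ireb2 encodes IRP2, whose amount is set by its degradation. It read 1236, 1204 and 1318 at 24 h in HF+SFC+ALA, HF and Control pools, against 1272, 1085 and 1123 at 4 h, and the groups overlapped (difference 0.11 ± 0.09, limma adjusted p = 0.569). Aco1 encodes IRP1, which doubles as cytosolic aconitase when it holds an iron-sulfur cluster. It read 1609, 1780 and 1503 at 24 h, against 1887, 1811 and 1497 at 4 h (-0.08 ± 0.08, limma adjusted p = 0.669). Fbxl5 read 1647, 1396 and 1619 at 24 h, against 1509, 1846 and 1533 at 4 h (-0.07 ± 0.11, limma adjusted p = 0.810). In all 3 genes the pools of the 2 times overlapped.

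Over the 8 genes, 3 fasting differences were positive and the median was -0.07, beside 0.01 over all genes tested. An unadjusted p under 0.05 was reached by 3 of the 8 (Tfrc, Slc40a1 and Slc11a2) and by 2040 of 11537 genes.

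**Figure D3:**
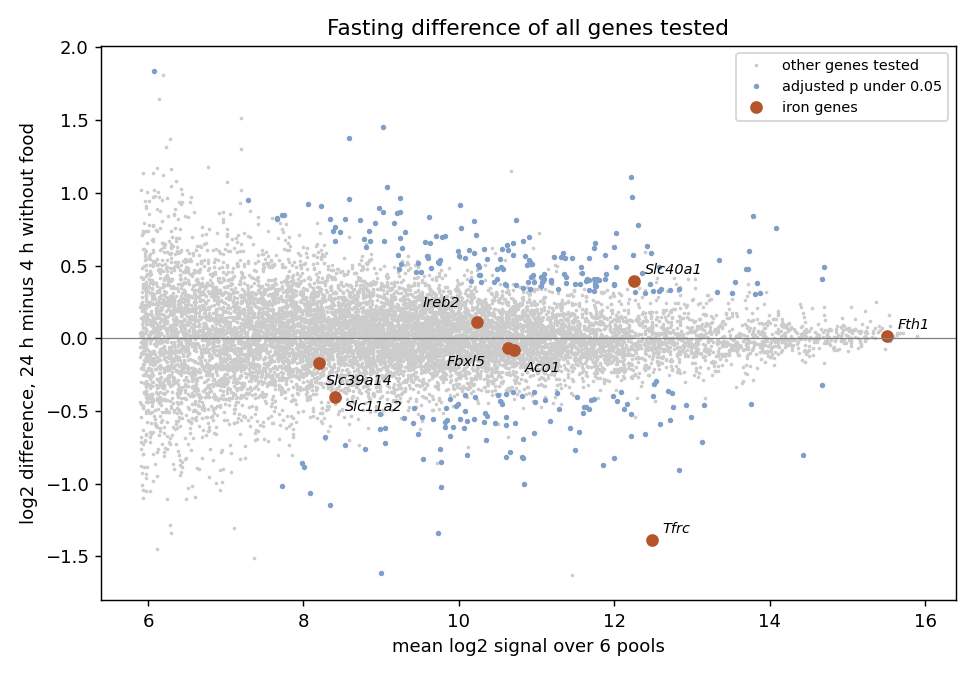
Log2 difference, 24 h minus 4 h without food, against mean log2 signal for the 11537 genes tested; blue points passed an adjusted p of 0.05 and the 8 iron genes are named. Tfrc, the fifth lowest, lies at -1.39 and Slc40a1 at 0.39.

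The diet comparisons asked how high-fat feeding, and the iron salt with the heme precursor, bear on the same genes. For HF against Control, 0 of 8 members passed the limma fit beside 0.884% of all genes tested; at an unadjusted p under 0.05 there were 1 of 8 members and 1697 of 11537 genes. The member with the lowest p was Aco1, at 1780 and 1811 in the HF pools at 24 h and 4 h, against 1503 and 1497 in the Control pools. Both HF pools lay above both Control pools, as in 19.7% of all genes tested; 0 of 8 members had both HF pools below both Control pools, beside 18.9% of genes. The difference of Aco1 was 0.26 ± 0.10 (95% interval 0.03 to 0.49; limma adjusted p = 0.284). Its second probe set gave 0.16 ± 0.19.

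Tfrc differed between HF and Control by -0.18 ± 0.11 (95% interval -0.43 to 0.06; limma adjusted p = 0.466). The pair of pools at 4 h was level (10053 in HF against 10076 in Control), and at 24 h HF was lower by 0.37 on the log2 scale. Its other probe sets were divided: 4 of the 5 gave positive differences, of 0.12 to 0.28, and 1422967_a_at gave -0.56 ± 0.35. Slc40a1 stood at -0.18 ± 0.13, Slc11a2 at -0.19 ± 0.16, Ireb2 at -0.09 ± 0.11, and Fth1, Slc39a14 and Fbxl5 between -0.03 and 0.03, none passing. Without the Control pool at 4 h Slc40a1 stood at -0.45, while its second probe set gave 0.16 over all 6 pools.

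Between HF+SFC+ALA and HF, which differ by the additives, 0 of 8 members passed the limma fit (1 at an unadjusted p under 0.05), and 0% of the 11537 genes passed (585 at an unadjusted p under 0.05). Slc39a14 had the largest difference among the members, with 343 and 373 in the 24 h and 4 h pools on HF+SFC+ALA, against 243 and 286 in the HF pools. Both HF+SFC+ALA pools lay above both HF pools, and the same held for Slc40a1 and Ireb2, 3 of 8 members beside 13.1% of all genes tested, while the opposite held for 0 of 8, beside 15.7%. The difference of Slc39a14 was 0.44 ± 0.17 (95% interval 0.06 to 0.82; limma adjusted p = 0.895). Its second probe set gave 0.12 ± 0.35.

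Slc40a1 was 5681 and 4720 in the 24 h and 4 h pools on HF+SFC+ALA, against 4719 and 4223 in the HF pools, a difference of 0.21 ± 0.13 (limma adjusted p = 0.971). The pools were barely apart, since the lower HF+SFC+ALA pool and the higher HF pool differed by about 1 signal unit. Its second probe set gave 0.30 ± 0.11 (limma adjusted p = 0.942), and all 4 pairs over both probe sets were positive. Ireb2 stood at 0.13 ± 0.11, with 1236 and 1272 in HF+SFC+ALA against 1204 and 1085 in HF.

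The remaining members gave little between these diets. Tfrc stood at -0.14 ± 0.11 (95% interval -0.39 to 0.10; limma adjusted p = 0.974), with -0.36 at 4 h and 0.08 at 24 h, and its other probe sets ran from -0.13 to 0.35. Fth1 stood at -0.03 ± 0.08 (95% interval -0.20 to 0.15), Slc11a2 at -0.03 ± 0.16, Aco1 at -0.04 ± 0.10 and Fbxl5 at -0.03 ± 0.13.

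HF+SFC+ALA against Control shares its pools with the last 2 comparisons, so its values stand beside theirs and are not independent. Again 0 of 8 members passed the limma fit beside 0.0347% of all genes tested, which is 4 genes; at an unadjusted p under 0.05 there were 2 of 8 members and 1433 of 11537 genes. Tfrc was lower in HF+SFC+ALA at both times, with 3368 and 7826 at 24 h and 4 h, against 4112 and 10076 in Control (-0.33 ± 0.11, limma adjusted p = 0.301), but 4 of its other 5 probe sets gave positive differences, of 0.05 to 0.35, and 1422967_a_at gave -0.21 ± 0.35. Slc39a14 (0.41 ± 0.17, limma adjusted p = 0.365) and Aco1 (0.22 ± 0.10, limma adjusted p = 0.414) were higher in both HF+SFC+ALA pools than in both Control pools, 2 of 8 members beside 18.6% of all genes tested, and 0 of 8 were lower in both, beside 19.9%. The second probe sets of Slc39a14 and Aco1 gave 0.54 ± 0.35 and -0.04 ± 0.19. Slc40a1 stood at 0.04 ± 0.13 on its brightest probe set and at 0.46 ± 0.11 on its second (limma adjusted p = 0.207). Fth1 stood at -0.01 ± 0.08.

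**Figure D4:**
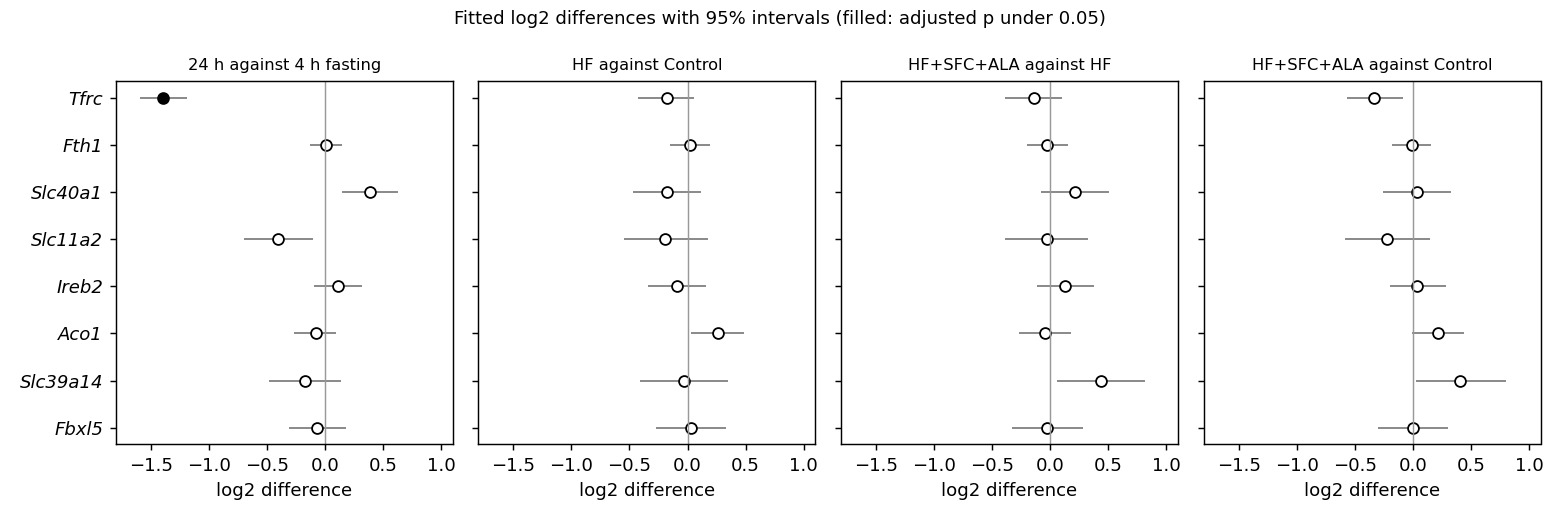
Fitted log2 differences with 95% intervals of the 8 genes in the 4 comparisons (positive means higher at 24 h, or in the diet named first); filled points passed an adjusted p of 0.05 over all genes. Tfrc in the fasting comparison, at -1.39, is the filled point, and in the diet comparisons the members lie between -0.33 and 0.44.

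The 1 probe set annotated to Trf, the plasma iron carrier, also lists Srprb, a subunit of the signal recognition particle receptor, so its signal cannot be assigned to either. It read 198, 466 and 433 at 24 h in HF+SFC+ALA, HF and Control pools, against 468, 646 and 351 at 4 h. The 24 h pool on HF+SFC+ALA was the lowest of all 6 and the 4 h pool on HF had the highest signal. The differences were -0.47 ± 0.24 for fasting and -0.85 ± 0.29 for HF+SFC+ALA against HF, without passing (limma adjusted p = 0.378 and 0.931). Trf is known to be made by Schwann cells as well as hepatocytes. The summed signal of 6 Schwann cell markers was 4659 and 4518 in the 24 h and 4 h pools on HF+SFC+ALA, against 6275 and 6415 in HF pools, and their part in this result was not tested. Of 7 hepatocyte markers 6 had a probe set of their own and 2 were above the filter, with a summed signal of 181 to 281 over the 6 pools.

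Genes around the members were taken from lists of pathway genes. Of 24 further genes of iron transport and handling, 23 had a probe set of their own, 17 passed the filter, and 0 passed the limma fit in any of the 4 comparisons. At an unadjusted p under 0.05 there were 2, 2, 0 and 2 of the 17, beside 2040, 1697, 585 and 1433 of 11537 genes. The median fasting difference of the 17 was 0.04. The 3 brightest were Hjv, the hemojuvelin co-receptor known to be abundant in skeletal muscle (-0.08 ± 0.06 for fasting), and Pcbp1 and Pcbp2, which carry iron to ferritin (0.10 ± 0.07 and 0.04 ± 0.06).

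Of 6 other genes whose messages are known to hold an iron-responsive element, 5 were tested. For fasting 1 of the 5, Cdc14a, passed, beside 2.39% of all genes tested and 0.910% that passed with lower signal. Cdc14a, a phosphatase whose element is known from the human gene, read 699, 608 and 720 at 24 h in HF+SFC+ALA, HF and Control pools, against 851, 897 and 1272 at 4 h. It fell by 0.55 on the log2 scale (± 0.12, limma adjusted p = 0.0468), and with its probe sets averaged it stood at -0.24 (adjusted p = 0.684). The call was also lost with no filter on signal, without the trend, without diet in the model (adjusted p = 0.394, 0.287 and 0.173) and without any 1 pool other than Control at 24 h (0.0547 to 0.0917). In this list 0 passed in the diet comparisons. At an unadjusted p under 0.05 there was 1 for HF against Control, beside 1697 of 11537 genes.

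Of 5 genes for factors that bind Tfrc or other messages and promote their decay, 0 passed the limma fit in any of the 4 comparisons (3, 3, 0 and 2 at an unadjusted p under 0.05, beside 2040, 1697, 585 and 1433 of 11537 genes). The 3 brightest gave fasting differences of -0.25 ± 0.07 (Rc3h2), 0.24 ± 0.09 (Zfp36l1) and 0.22 ± 0.10 (Rc3h1). The others gave -0.60 ± 0.35 (Zc3h12a) and -0.22 ± 0.09 (Zfp36), and the median of the 5 was -0.22. Rc3h2 stood at 0.07 with its probe sets averaged. Of 13 hypoxia-inducible genes 0 passed for fasting, with 4 positive differences and a median of -0.08. At an unadjusted p under 0.05 there were 4, beside 2040 of 11537 genes. These were Ankrd37 (-0.76 ± 0.26), Egln3 (-0.37 ± 0.11), Vegfa (-0.31 ± 0.12) and Bnip3, a mitophagy receptor (0.23 ± 0.08). The 3 brightest were Ldha, lactate dehydrogenase A (0.00 ± 0.07), Bnip3, and Egln1, an oxygen-sensing hydroxylase (-0.08 ± 0.06).

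Over the 6 pools, the 5 genes with log2 signals nearest to those of Tfrc, each centred on its mean, were Hmga2-ps1 (Euclidean distance 0.56, Pearson's r 0.947), Slc38a4 (0.70, r 0.984), Defa31 (0.71, r 0.973), Tmem87a (0.71, r 0.965) and Scarf1 (0.75, r 0.902). Points share the arrays, and the values describe likeness only. Genes chosen for likeness to Tfrc over these pools share its fall at 24 h by that choice, so their fasting differences are not separate evidence. Slc38a4, an amino acid transporter, read 2770, 2441 and 3018 at 24 h in HF+SFC+ALA, HF and Control pools, against 4945, 4918 and 5158 at 4 h. Its fasting difference was -0.87 ± 0.07 and that of Hmga2-ps1, an annotated pseudogene, -1.34 ± 0.12 (limma adjusted p = 0.00150 for both). With probe sets averaged Slc38a4 stood at -0.56 and did not pass (adjusted p = 0.0898), and both genes lost the call with no filter on signal (0.321) and without the trend (0.282). The other 3 are dim probe sets that did not pass.

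Tfrc is known to be high in erythroid precursors and dividing cells, so the markers of both are set beside it. Of 9 erythroid markers, 5 had a probe set of their own and 1 was above the filter. A marker with only shared probe sets was not counted, so the count does not show which markers the array lacks. Hba-a1 and Epb42, each read on its brightest probe set annotated to it alone, were under the floor in 5 and 6 of the 6 pools. Their summed signal was 225, 357 and 195 at 24 h in HF+SFC+ALA, HF and Control pools, against 298, 322 and 189 at 4 h. These sums overlapped between the times. Their largest part in every pool was Alas2, the 1 marker above the filter, at 112.5 to 204.7. Alas2 differed by -0.06 ± 0.22 with fasting (limma adjusted p = 0.924). Of 7 proliferation markers 6 had a probe set of their own and 2 were above the filter. Their sums were 2531, 2559 and 2666 at 24 h, against 2490, 2152 and 2475 at 4 h. Most of each sum was Pcna, which differed by 0.17 ± 0.09 with fasting (limma adjusted p = 0.347), and Mcm2 differed by 0.01 ± 0.17. The part of either cell type in the fall of Tfrc was not tested.

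Macrophages are known to express Slc40a1 strongly. Of 14 macrophage markers 10 were tested, with a median fasting difference of -0.03. For fasting 1 of the 10 passed, beside 2.39% of all genes tested, and the others ran from -0.18 to 0.36. The marker that passed was Cd163, the hemoglobin scavenger receptor. It read 241, 250 and 245 at 24 h in HF+SFC+ALA, HF and Control pools, against 396, 461 and 333 at 4 h (-0.68 ± 0.15, limma adjusted p = 0.0495). This call was lost in 6 of the 7 other settings of the fit, all but the filter at the 65th percentile (adjusted p from 0.0513 to 0.343), and without any 1 HF or HF+SFC+ALA pool (0.113 to 0.226). The summed signal of the macrophage markers was 3880, 5227 and 3065 at 24 h, against 4948, 4504 and 3371 at 4 h. For HF against Control all 10 differences were positive, with a median of 0.60, but 0 of the 10 passed the limma fit. At an unadjusted p under 0.05 there were 5, beside 1697 of 11537 genes. In the same comparison all 5 adipocyte markers tested, of 7 listed, had positive differences, with a median of 2.17. Of these 3 passed the limma fit (Lep, Adipoq and Cidec), beside 0.884% of all genes tested. For HF+SFC+ALA against HF all 5 were lower, with a median of -1.68, and 0 passed. At an unadjusted p under 0.05 there were 3, beside 585 of 11537 genes. For HF+SFC+ALA against Control all 5 were higher, with a median of 0.79, and 0 passed. Here 4 had an unadjusted p under 0.05, beside 1433 of 11537 genes. For fasting the adipocyte markers had a median of -0.80 and 0 of 5 passed the limma fit. All 5 had an unadjusted p under 0.05 for fasting, as did 2040 of 11537 genes. The differences were -1.52 ± 0.40 for Retn, -0.99 ± 0.25 for Lep, -0.80 ± 0.18 for Cidec and -0.68 ± 0.17 for Adipoq, the direction of Tfrc, and 0.21 ± 0.07 for Fabp4. The part of these cell types in the values of the iron genes, Tfrc included, was not tested.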

How the data were processed

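The authors deposited an intensity for each probe set on each array; the submitters' processing notes name MAS5, with no version or settings stated in the sources used here. With 2% of values trimmed at each end, every array had a mean of 500.004, a common scale. The label was biotin on cRNA from a 3' IVT kit, per the labels' protocols. Precision is limited by the number of arrays, and no detection calls entered.

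Of 45101 probe sets, 64 were controls, and 34945 of the others had 1 gene symbol, 932 several and 9160 none listed; symbols were updated by gene identifier for 34741. A floor at the 30th percentile (26.4) was applied before taking log2. Each gene was represented by its brightest probe set and tested if its mean log2 signal lay over the median (5.90), leaving 11537 genes. Limma 3.58.1 in R 4.3.3 fitted diet and fasting time together (lmFit, eBayes with an intensity trend; 2 residual and 7.24 prior degrees of freedom), with Benjamini-Hochberg adjustment over all genes. The p-values rest on the spread between pools that the additive model leaves. Probe sets were also fitted as such. The fit was tested on simulated data. Members, lists and tests were chosen with earlier results of these data known. Named genes are the members, the 5 nearest to Tfrc, and in each list those that passed or else up to 3 of the brightest. Where a list had several marker genes passing or none, it is given by its counts. Some further list genes are named with their values. Alternatives are listed in the closing section. Promoter sequences are RefSeq's, on GRCm38.p6. Tables and figures were made with Python 3.11.15 (numpy 2.4.6, pandas 2.3.3, matplotlib 3.10.9).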

Additional observations from a re-analysis of the deposited data

Results flagged for a closer look

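Differences of opposite direction, each at least 0.2 on the log2 scale, were looked for between pairs of pools of the same comparison; each rests on single pools and the difference between them was not tested. Fbxl5 went opposite ways at 24 h and 4 h in 2 comparisons: HF against Control gave -0.21 at 24 h and 0.27 at 4 h, and HF+SFC+ALA against HF gave 0.24 at 24 h and -0.29 at 4 h. The HF pools enter both comparisons. Slc40a1 gave -0.21 at 24 h and 0.28 at 4 h for HF+SFC+ALA against Control on its brightest probe set, while its second probe set gave 0.41 and 0.50.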

How the results depend on the processing

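The fall of Tfrc at 24 h kept its direction in all alternatives run. With all pools it passed except with no filter, without the intensity trend, and on the middle control probe set. Without 1 pool it ran from -1.47 to -1.25, and leaving out either pool of a diet gave the same fasting difference. These refits keep 1 pool of a diet and fewer than 2 residual degrees of freedom. Their p-values and counts of genes passing lean heavily on the prior estimate of spread and are no support for a call. Limits are the single pool per combination, 2 residual degrees of freedom, and signals of Fth1 near the top of the scale. The genes passing for fasting (276) were 0 with no filter, 0 without the trend, 12 with probe sets averaged and 60 with fasting time alone; the members passing were 0 with no filter and 0 without the trend. For HF against Control (102) they were 0, 0 and 1 with no filter, without the trend and with probe sets averaged. The comparison of HF+SFC+ALA with HF (0) gave 6 with the filter at the 65th percentile. HF+SFC+ALA against Control (4) gave 0 with quantile normalization, no filter, no trend or averaged probe sets.

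Without 1 pool the fasting count ran from 55 (HF+SFC+ALA at 4 h) to 452 (Control at 4 h), with 59 and 444 on leaving out HF+SFC+ALA or Control at 24 h, and members from 1 to 2 (2 without either HF pool). For HF against Control it ran from 42 (HF at 24 h) to 573 (Control at 4 h), with 46 and 52 on leaving out HF+SFC+ALA at 24 h or 4 h, 254 without HF at 4 h and 278 without Control at 24 h, and members from 0 to 1. For HF+SFC+ALA against HF it ran from 0 to 109 (Control at 24 h), with 108 without Control at 4 h, 4 without HF at 4 h and 2 without HF+SFC+ALA at 4 h. For HF+SFC+ALA against Control it ran from 0 (HF+SFC+ALA at 4 h) to 419 (Control at 4 h), with 99 without Control at 24 h, and 83 and 82 without HF at 24 h and 4 h. The cause was not tested.

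Signs turned only for values that had not passed. With quantile normalization Fth1 was -0.02 for fasting, -0.00 for HF against Control and 0.02 in both other comparisons, and Ldha -0.04 for fasting. With probe sets averaged, HF against Control gave -0.00 for Fth1, 0.08 for Slc11a2 and 0.06 for Slc39a14, HF+SFC+ALA against HF gave 0.09 for Tfrc, HF+SFC+ALA against Control gave 0.07 for Slc11a2, and fasting gave 0.07 for Rc3h2. On other probe sets, fasting gave 0.00 for Slc11a2. HF against Control gave 0.28, 0.27, 0.13 and 0.12 for Tfrc, -0.03 for Fth1, 0.16 for Slc40a1, 0.16 and 0.42 for Slc11a2 and 0.42 for Slc39a14. HF+SFC+ALA against HF gave 0.07, 0.35 and 0.18 for Tfrc, 0.01 for Fth1 and 0.28 for Slc11a2. HF+SFC+ALA against Control gave 0.35, 0.15, 0.05 and 0.30 for Tfrc, 0.04 and 0.70 for Slc11a2 and -0.04 for Aco1.

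Without 1 pool, signs turned within these ranges. For fasting they were -0.01 to 0.04 (Fth1), -0.16 to 0.10 (Fbxl5) and -0.09 to 0.07 (Ldha). For HF against Control they were -0.38 to 0.02 (Tfrc), -0.02 to 0.06 (Fth1), -0.45 to 0.09 (Slc40a1), -0.08 to 0.02 (Slc39a14) and -0.23 to 0.28 (Fbxl5). HF+SFC+ALA against HF gave -0.34 to 0.06 (Tfrc), -0.07 to 0.02 (Fth1), -0.12 to 0.06 (Slc11a2), -0.15 to 0.07 (Aco1) and -0.28 to 0.23 (Fbxl5). HF+SFC+ALA against Control gave -0.05 to 0.04 (Fth1), -0.23 to 0.31 (Slc40a1), -0.07 to 0.16 (Ireb2) and -0.14 to 0.15 (Fbxl5).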
